A study of Mus musculus with 6 samples.

Results

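The genes of DNA replication and cell division described here are 38 genes of the S, G2 and M phases, chosen by gene symbol. All 38 were among the 15092 genes of the liver expression table. The table holds 6 libraries of polyadenylated RNA from the liver of C57BL/6J mice, 3 labelled WT (wild type) and 3 labelled CRY1 KO (knockout of the cryptochrome gene Cry1), with no treatment. The labels name the cell type as hepatocyte and describe no sorting, and they give no age, sex, time of day, allele or origin of the knockout. They do not say that replicates were separate animals, so p-values measure the spread between these libraries, which may be in part technical. All titles share the prefix NC, which the labels do not explain.

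Most hepatocytes of the adult liver rest outside the cell cycle and return to it after injury or loss of tissue. On entry, E2F transcription factors switch on the genes that load and fire replication origins and supply nucleotides. Later FOXM1 and B-MYB switch on the genes of mitosis, which in resting cells are kept silent by the DREAM repressor complex. The circadian clock meets this programme at WEE1, a kinase that holds back CDK1 and whose gene is a target of the clock, and CRY1 is a repressor of the clock's activators.

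Library totals lay between 79708703 and 91316332 estimated counts, and a single count was worth between 0.0104 and 0.0124 CPM (counts relative to library size, after TMM scaling of the libraries). Cry1 itself stood at 413, 579 and 694 counts in WT 1, 2 and 3 and at 561, 521 and 445 in CRY1 KO 1, 2 and 3. Its log2 difference was -0.03 (95% interval -0.46 to 0.41), so the value of the whole gene does not check the labels, and directions below are those of the libraries as labelled. Hepatocyte markers such as Alb and Hnf4a were all detected, with a summed level between 91486 and 106240 CPM. Markers of other liver and blood cells were detected too, so the RNA is not that of hepatocytes alone, and fewer cells of a type and less RNA per cell cannot be told apart. WT 1 held the highest summed level of red cell, neutrophil and Kupffer cell markers, but not of B and plasma cell, endothelial or bile duct markers. By less, it was also highest for T and NK cell markers (5.09 CPM, beside 4.64 and 4.63 in WT 2 and 3) and stellate cell markers (260.8 CPM, beside 180.9 and 251.5). The values are given beside the results they touch.

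None of the tested cell cycle genes differed between the groups past the threshold. By edgeR's quasi-likelihood test with an adjusted p of 0.05 as the threshold, 0 of 37 tested members passed, beside 1.7% of all 13816 tested genes (1.06% higher and 0.644% lower in CRY1 KO). Bub1 was too low to test. At an unadjusted p under 0.05, which 20.7% of all tested genes had, there were 4 members higher in CRY1 KO (10.8% of members, beside 10.9% of all tested genes) and 1 lower (2.7%, beside 9.84%). In 6 members every CRY1 KO library stood above every WT library (16.2%, beside 14.6% of all tested genes), and in 1 every CRY1 KO library stood below (2.7%, beside 12.7%); of all tested genes 27.3% had groups apart in either direction. The share of higher members was thus near the background of the whole table.

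The members with an unadjusted p under 0.05 were the E-type cyclins Ccne1 and Ccne2, the ribonucleotide reductase gene Rrm2 and the survivin gene Birc5, all higher in CRY1 KO by more than 2-fold in the fit, and Mcm7, lower in CRY1 KO. The smallest adjusted p of a member, that of Mcm7, was 0.0592 in edgeR. DESeq2 called these 5 genes (beside 10.9% of all genes with an adjusted p in DESeq2), gave no adjusted p for 9 members, and called no other. Limma-voom called 0 of 37 members, beside 1.48% of all genes.

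**Figure D1:**
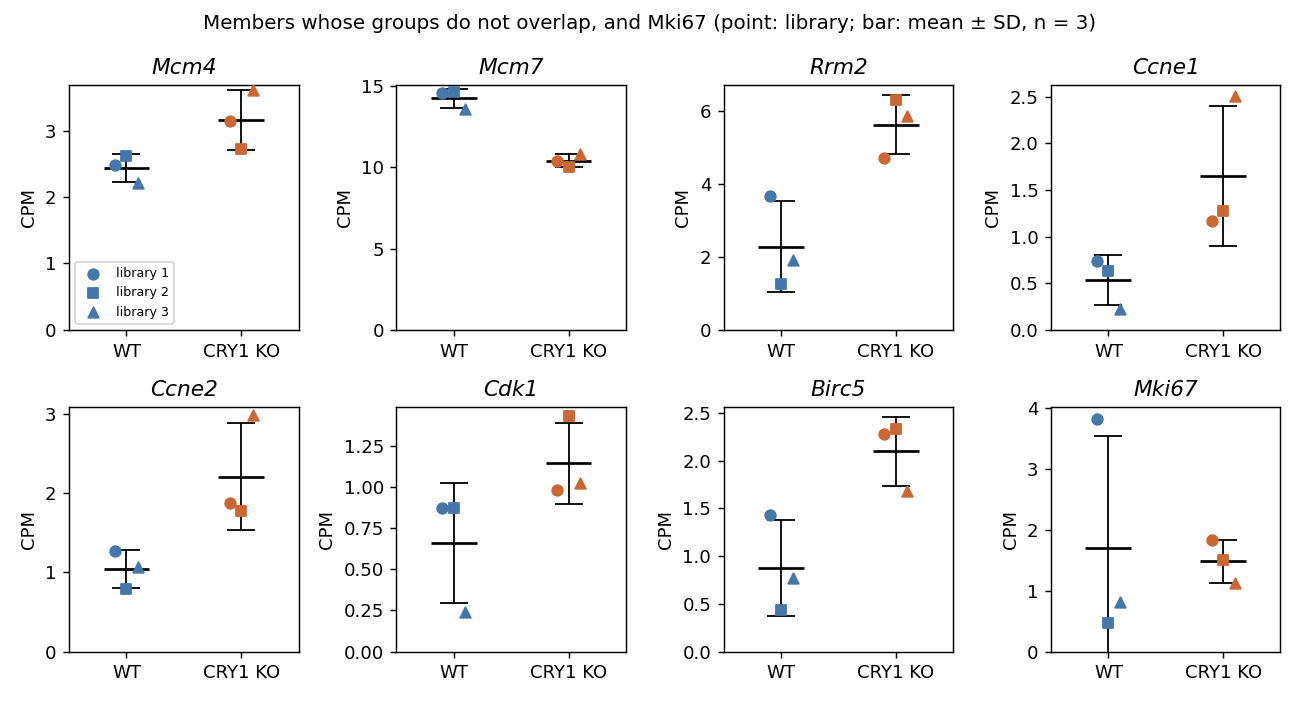
Level in CPM (vertical axis, from 0) of the 7 members whose groups do not overlap, and of Mki67, in WT and CRY1 KO libraries; points are libraries, bars the mean ± SD of 3, and the lower bar of WT Mki67 ends below the axis. Mcm7 is the gene whose CRY1 KO points all lie below WT, and Mki67 shows WT 1 at 3.83 CPM far above WT 2 and 3.

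Licensing of replication origins was the group with most differences below 0. Cdc6 and Cdt1 load the MCM2-7 helicase, the MCM proteins are its subunits, and GINS2 belongs to the complex that activates it. Of these 9 genes 8 had a lower fitted level in CRY1 KO and 1 a higher one, and 0 passed the test. Their median log2 difference was -0.23, beside -0.02 for all tested genes, of which 47.3% had a positive difference.

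Mcm7, a helicase subunit gene, was at 14.5, 14.6 and 13.6 CPM across the WT libraries, compared with 10.37, 10.03 and 10.84 CPM across CRY1 KO. The groups were tight and did not overlap. WT libraries averaged 14.2 ± 0.58 CPM and CRY1 KO libraries 10.4 ± 0.40 CPM (SD, n = 3 for both), which gave a log2 difference of -0.45 (SE 0.10, 95% interval -0.68 to -0.23, edgeR adjusted p = 0.0592). Without WT 3 it passed (log2 -0.48, edgeR adjusted p = 0.042), and without any other single library it did not. In the fit without WT 3, 844 of 13976 tested genes passed, against 235 of 13816 in the reported fit.

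In the GENCODE gene models of the earlier build GRCm38, Mcm7 lies beside Ap4m1 on the opposite strand, and GENCODE exons of Ap4m1 cover 7.25% of the Mcm7 exon bases. Whether the authors' counting used strand is not given in the sources used here. Ap4m1, an adaptor complex gene, had a log2 difference of 0.03 (SE 0.14), and Cops6, on the other side, of -0.15 (SE 0.11).

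Mcm4 was the licensing gene whose difference had the opposite sign. It had WT values of 2.49, 2.62 and 2.21 CPM and CRY1 KO values of 3.15, 2.72 and 3.62 CPM. The groups did not overlap, but WT 2 and CRY1 KO 2 lay close together, and the log2 difference of 0.37 (SE 0.19) did not pass (edgeR adjusted p = 0.306).

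The other subunit genes Mcm2, Mcm3, Mcm5 and Mcm6 had log2 differences between -0.23 (Mcm6) and -0.08 (Mcm3), with overlapping groups. In each of the 4 the highest library was WT 1. Mcm6 for example held 5.15 CPM in WT 1, but 2.997 and 3.69 CPM in the other WT libraries, against 2.69, 4.03 and 3.37 CPM in CRY1 KO. Without WT 1 the differences of these 4 genes lay between 0.00 (Mcm2) and 0.18 (Mcm5), so their sign changed without that library. The sign of Mcm5 also changed without CRY1 KO 1 (0.08).

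Cdt1 ranged over 1.61 to 2.24 CPM (WT) and 1.18 to 1.95 CPM (CRY1 KO) (log2 -0.33, SE 0.27). Cdc6 was near the lower end of what could be tested, with 42, 11 and 15 counts in WT and 19, 12 and 0 in CRY1 KO. Gins2 stood at 105, 56 and 28 counts in WT and at 30, 33 and 41 in CRY1 KO (log2 -0.79, SE 0.52). Its level is uncertain, because exons of Gse1 on the opposite strand cover 67.3% of its exon bases in GENCODE, and Gse1 had a log2 difference of -0.48 (SE 0.37).

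Nucleotide supply was uneven. RRM2 is the small subunit of ribonucleotide reductase, which makes deoxynucleotides and whose RRM2 subunit rises in S phase, while RRM1 is its large subunit. Rrm2 held 3.66, 1.26 and 1.92 CPM in WT libraries and, in the CRY1 KO libraries, 4.72, 6.30 and 5.87 CPM. The groups did not overlap, and WT 1 was the WT library nearest to CRY1 KO. WT libraries averaged 2.28 ± 1.24 CPM and CRY1 KO libraries 5.63 ± 0.82 CPM (SD, n = 3 for both), 2.47-fold in the fit (log2 1.30, SE 0.36, 95% interval 0.46 to 2.15, edgeR adjusted p = 0.107). It passed without WT 1 (log2 1.82, edgeR adjusted p = 0.0072) and in no fit without another single library.

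Rrm1 showed no such gap. It was at 7.43, 8.06 and 7.71 CPM across the WT libraries, compared with 8.36, 7.64 and 8.63 CPM across CRY1 KO, with a log2 difference of 0.09 and a 95% interval of -0.18 to 0.35. The difference between the responses of both subunit genes was not tested.

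Tk1 (thymidine kinase), the gene of this group with most counts, had WT values of 14.9, 15.3 and 22.6 CPM and CRY1 KO values of 18.6, 22.4 and 20.04 CPM. Its log2 difference of 0.21 (SE 0.17) was set against a WT library, WT 3, above all 3 CRY1 KO libraries. Exons of Afmid on the opposite strand cover 1.6% of the Tk1 exon bases. Afmid was also highest in WT 3, with 72.2, 99.8 and 131.8 CPM in WT and 115.4, 106.6 and 101.5 CPM in CRY1 KO, and its part in the Tk1 counts was not tested. Pcna, the sliding clamp of DNA polymerases, had 0.20 (SE 0.14), and Tyms, thymidylate synthase, -0.24 (SE 0.17), both with overlapping groups. GENCODE lists pseudogenes of Pcna and Tyms, and of Ccnb1 and Ccnb2 below, which are not in the table, so reads shared with them could affect these levels.

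Among regulators of entry into S phase, both E-type cyclin genes stood higher in every CRY1 KO library. Cyclin E activates CDK2 at the start of S phase, E2F1 is a transcription factor of its targets, and cyclin A2 acts through S phase into mitosis. Ccne1 had WT values of 0.74, 0.63 and 0.23 CPM (64, 53 and 22 counts) and CRY1 KO values of 1.16, 1.28 and 2.51 CPM (94, 104 and 214 counts). CRY1 KO 3 was the highest and WT 3 the lowest library. The log2 difference was 1.63 (SE 0.48, 95% interval 0.52 to 2.74, edgeR adjusted p = 0.117), and it was 1.20 without CRY1 KO 3 and 1.26 without WT 3.

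Ccne2 held 1.27, 0.80 and 1.06 CPM in WT libraries and, in the CRY1 KO libraries, 1.87, 1.77 and 2.98 CPM. The groups did not overlap, and CRY1 KO 3 was again the highest. WT libraries averaged 1.04 ± 0.24 CPM and CRY1 KO libraries 2.21 ± 0.67 CPM (SD, n = 3 for both), which gave a log2 difference of 1.08 (SE 0.30, 95% interval 0.40 to 1.76, edgeR adjusted p = 0.0979). Exons of Ints8 on the opposite strand cover 17.4% of the Ccne2 exon bases, and Ints8 also stood higher in every CRY1 KO library (log2 0.32, SE 0.10, edgeR adjusted p = 0.136), so part of the Ccne2 counts could be those of Ints8 if strand was not used; this was not tested.

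E2f1 was at 2.79, 2.58 and 2.096 CPM across the WT libraries, compared with 2.106, 2.496 and 1.961 CPM across CRY1 KO (log2 -0.19, SE 0.21), with overlapping groups. Ccna2 held 1.41 CPM in WT 1, only 0.50 and 0.31 CPM in the other WT libraries, and between 0.85 and 1.29 CPM in CRY1 KO (log2 0.54, SE 0.53). Exons of Exosc9 on the opposite strand cover 12.5% of its exon bases.

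**Figure D2:**
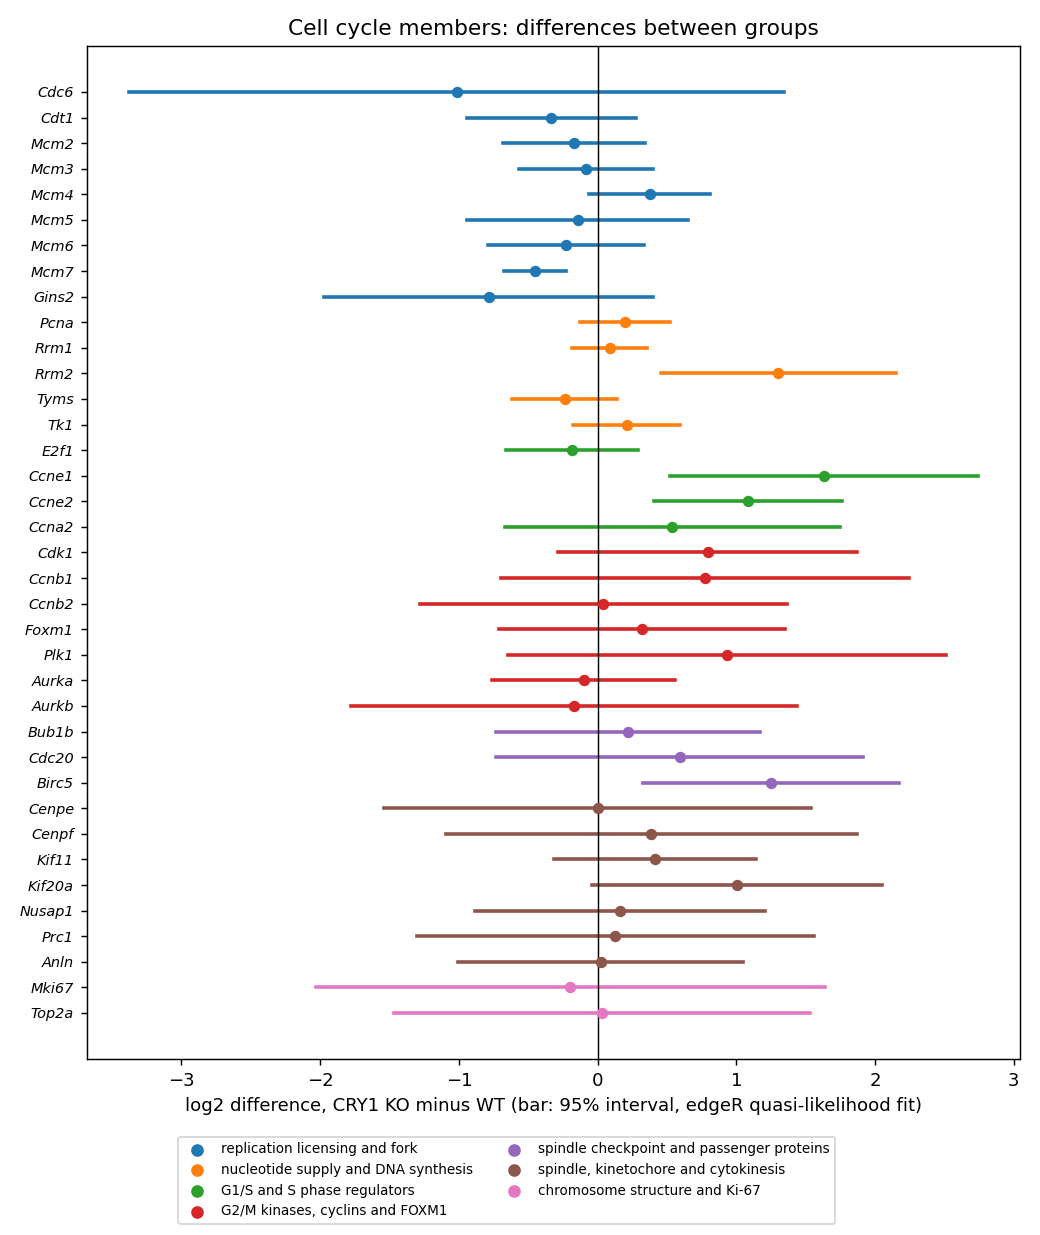
Log2 difference of each of the 37 tested members (CRY1 KO minus WT, horizontal axis) with its 95% interval from the edgeR fit, coloured by role. The intervals of Mcm7, Rrm2, Ccne1, Ccne2 and Birc5 leave out 0, and those of Cdc6, which has few counts, and of Mki67, which is uneven within WT, span several log2 units.

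Kinases, cyclins and other regulators of mitosis were low and mostly had positive differences. CDK1 with a B-type cyclin drives entry into mitosis, FOXM1 is the transcription factor of many mitotic genes, PLK1 and the Aurora kinases act on centrosomes, spindle and chromosomes. Of these 7 genes 5 had a positive log2 difference and 2 a negative one, with a median of 0.32, and 0 passed the edgeR test. Of all tested genes 47.3% had a positive difference, and their median was -0.02.

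Cdk1 had WT values of 0.87, 0.87 and 0.24 CPM (75, 73 and 23 counts) and CRY1 KO values of 0.98, 1.43 and 1.02 CPM (79, 116 and 87 counts). The groups did not overlap, but WT 1 and 2 lay close below CRY1 KO 1, and the log2 difference of 0.79 (SE 0.47, 95% interval -0.28 to 1.87, edgeR adjusted p = 0.372) was 0.39 without WT 3. Aurka, the gene of this group with most counts, had WT values of 2.44, 1.65 and 1.90 CPM and CRY1 KO values of 1.92, 2.41 and 1.26 CPM (log2 -0.10, SE 0.29), with no separation of the groups.

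Ccnb1 had between 10 and 36 counts in every library, Plk1 between 5 and 42, and Aurkb between 6 and 32. Their log2 differences were 0.77 (SE 0.65), 0.93 (SE 0.69) and -0.17 (SE 0.70). Ccnb2 (0.04, SE 0.58) and Foxm1 (0.32, SE 0.45) overlapped between groups as well.

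At the spindle checkpoint and the chromosomal passenger complex, Birc5 was the gene with separate groups. BUB1 and BUBR1, the product of Bub1b, delay anaphase, CDC20 activates the complex that starts it, and survivin, the product of Birc5, belongs to the passenger complex and is also known as an inhibitor of apoptosis. Birc5 had WT values of 1.43, 0.44 and 0.77 CPM (123, 37 and 74 counts) and CRY1 KO values of 2.28, 2.34 and 1.68 CPM (184, 190 and 143 counts). The WT library nearest to CRY1 KO was WT 1, as for Rrm2. WT libraries averaged 0.88 ± 0.50 CPM and CRY1 KO libraries 2.098 ± 0.36 CPM (SD, n = 3 for both), 2.38-fold in the fit (log2 1.25, SE 0.41, 95% interval 0.33 to 2.17, edgeR adjusted p = 0.139). Without WT 1 it passed (log2 1.78, edgeR adjusted p = 0.0282), and without any other single library it did not.

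Cdc20 varied most within CRY1 KO, with 88, 56 and 17 counts against 48, 30 and 38 in WT (log2 0.59, SE 0.58). Bub1b stood between 24 and 65 counts (log2 0.22, SE 0.42). Bub1 had 8, 0 and 0 counts in WT and 11, 0 and 11 in CRY1 KO and did not pass the filter on low counts.

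Genes of the spindle, kinetochore and cytokinesis all had fitted differences at or above 0, beside 47.3% of all tested genes with a positive one. In the edgeR test 0 of 7 passed. KIF11 and KIF20A are motor proteins of the spindle and its midzone, CENP-E and CENP-F act at kinetochores, NUSAP1 and PRC1 bundle microtubules, and anillin (Anln) organises the cleavage furrow. Kif20a, the gene of this group with most counts, stood at 83, 35 and 43 counts in WT and at 152, 81 and 68 in CRY1 KO. WT 1 lay within the CRY1 KO range, and the log2 difference was 1.006 (SE 0.46, edgeR adjusted p = 0.257). Exons of Cdc23 on the opposite strand cover 29.3% of its exon bases, and Cdc23 had a log2 difference of 0.08 (SE 0.14).

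Kif11 stood at 45, 79 and 60 counts in WT and at 77, 73 and 79 in CRY1 KO (log2 0.41, SE 0.32). The other 5 genes of this group had log2 differences between 0.00 (Cenpe) and 0.39 (Cenpf), with groups that overlapped. Prc1 was the most uneven of them in WT, with 86, 11 and 43 counts against 43, 55 and 44 in CRY1 KO. Exons of Rccd1 on the opposite strand cover 11.1% of its exon bases, and Rccd1 stood lower in every CRY1 KO library (log2 -0.63, SE 0.19, edgeR adjusted p = 0.115).

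Mki67 and Top2a, the usual markers of dividing cells, did not separate the groups. Ki-67 coats mitotic chromosomes, and topoisomerase II alpha untangles DNA before they part. Mki67 had WT values of 3.83, 0.48 and 0.81 CPM (329, 40 and 78 counts) and CRY1 KO values of 1.83, 1.5001 and 1.13 CPM (148, 122 and 96 counts). WT 1 lay above and WT 2 and 3 lay below all 3 CRY1 KO libraries. The log2 difference was -0.20 (SE 0.76, 95% interval -2.03 to 1.64, edgeR adjusted p = 0.911), and without WT 1 it was 1.20 (edgeR adjusted p = 0.115). Top2a stood at 154, 24 and 49 counts in WT and at 48, 69 and 102 in CRY1 KO (log2 0.03, SE 0.65). In CPM its WT 1 also lay above and its WT 2 and 3 below all 3 CRY1 KO libraries, though CRY1 KO 1 lay just below WT 3 in counts. Within CRY1 KO its order was the reverse of that of Mki67, with 0.59, 0.85 and 1.20 CPM in CRY1 KO 1, 2 and 3.

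The promoters of 4 members are shown because they span the patterns above: Mki67 and Top2a, which were highest in WT 1, Birc5, higher in every CRY1 KO library, and Mcm6, a licensing gene highest in WT 1. Each is the 250 bases before the gene's start, 5′ to 3′ on the gene's strand, from RefSeq in build GRCm38.p6, at chr7:135716380-135716629 (minus strand), chr11:99024190-99024439 (minus), chr11:117848987-117849236 (plus) and chr1:128359706-128359955 (minus), in that order. Capitals mark matches on either strand to the CCAAT box (CCAAT), bound by NF-Y, to the cell cycle homology region (CHR, TTTGAA), bound by DREAM and B-MYB complexes, and to E2F words (TTTCGCGC, TTTGGCGC or TTTCCCGC), which may overlap each other.
Mki67: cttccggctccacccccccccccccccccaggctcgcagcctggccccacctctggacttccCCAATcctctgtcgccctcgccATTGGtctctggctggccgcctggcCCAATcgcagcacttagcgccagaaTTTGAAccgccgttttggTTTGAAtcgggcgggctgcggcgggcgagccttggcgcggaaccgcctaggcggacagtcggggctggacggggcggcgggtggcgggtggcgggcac
Top2a: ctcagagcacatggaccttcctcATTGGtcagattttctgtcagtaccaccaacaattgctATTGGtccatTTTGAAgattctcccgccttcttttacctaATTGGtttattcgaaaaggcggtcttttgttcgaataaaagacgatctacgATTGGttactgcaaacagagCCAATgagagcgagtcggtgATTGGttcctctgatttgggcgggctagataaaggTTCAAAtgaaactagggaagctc
Birc5: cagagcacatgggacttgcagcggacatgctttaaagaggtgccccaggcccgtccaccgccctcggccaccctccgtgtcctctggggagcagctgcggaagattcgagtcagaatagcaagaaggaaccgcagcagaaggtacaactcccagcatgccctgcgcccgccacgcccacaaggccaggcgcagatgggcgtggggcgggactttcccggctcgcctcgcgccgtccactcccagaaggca
Mcm6: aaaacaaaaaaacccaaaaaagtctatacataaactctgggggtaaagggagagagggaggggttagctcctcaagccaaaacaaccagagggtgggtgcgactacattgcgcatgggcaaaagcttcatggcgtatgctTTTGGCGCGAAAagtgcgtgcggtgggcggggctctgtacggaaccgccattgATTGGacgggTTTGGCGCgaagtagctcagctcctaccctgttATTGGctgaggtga

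These words were searched in the same window of 31 members with a RefSeq promoter entry, counting a gene once if any of its entries matched. Not all windows lie wholly upstream of a gene. GENCODE exons of the gene itself fall in those of Bub1, Ccnb1, Ccne1, Cdc20, Cdc6, Cdk1, Cenpe, E2f1, Mcm7, Pcna, Prc1, Rrm2 and Tk1. Exons of other genes fall in those of Aurka, Nusap1 and Plk1, among others. The windows printed above hold no such exon. How often this holds for all promoters was not tested. Mitosis members held a CCAAT box in 14 of 17 genes and a CHR in 7 of 17, where 33.8% and 16.0% of all 32851 promoters did. Replication members held them in 8 of 14 and 1 of 14 genes. An E2F word was found in 4 of 14 replication members (Cdc6, Mcm5, Mcm6 and Mcm7) and in 1 of 17 mitosis members (Cdk1), where 1.53% of all promoters held such a word. The shares of all promoters count single entries, while members are counted by gene. Mcm7 and Prc1 have more than 1 entry, and the E2F word of Mcm7 and the CHR of Prc1 lie in only 1 of them. Birc5 held none of these words in this window.

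Words of the clock were searched too. The E-box CACGTG, bound by CLOCK and BMAL1, was found in the window of Tyms and Anln, where 6.02% of all promoters held it, and the D-box words TTATGTAA and TTACGTAA in no member, where 0.931% of all promoters held them. The groups of both Tyms (log2 -0.24) and Anln (0.02) overlapped. A match describes letters only, and its absence says nothing about a factor.

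By library, the members did not vary as a block by group. WT 1 was the highest of the 6 libraries in 16 of 37 tested members and WT 2 the lowest in 14. Among the 19 tested mitosis members WT 1 was highest in 8 and CRY1 KO 1 in 7, and WT 2 was lowest in 10. How often each library was highest or lowest over all tested genes was not counted. Whether these counts are particular to the members was thus not tested. Mitosis members together held 18.7, 7.66 and 9.44 CPM in WT 1, 2 and 3, against 17.0, 15.7 and 12.5 CPM in CRY1 KO 1, 2 and 3. In this sum WT 1 lay above and WT 2 and 3 below all CRY1 KO libraries. Mki67 alone gave 3.83 CPM of the sum in WT 1 and 1.83 CPM in CRY1 KO 1. The median over mitosis members of the log2 deviation from the 6-library mean was 0.36 in WT 1, within CRY1 KO (0.06 to 0.45). It was -0.57 in WT 2 and -0.30 in WT 3, below CRY1 KO. Replication members together held 90.7, 78.3 and 83.4 CPM in the WT libraries, against 84.5, 89.1 and 94.6 CPM in the CRY1 KO libraries, with overlapping groups.

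**Figure D3:**
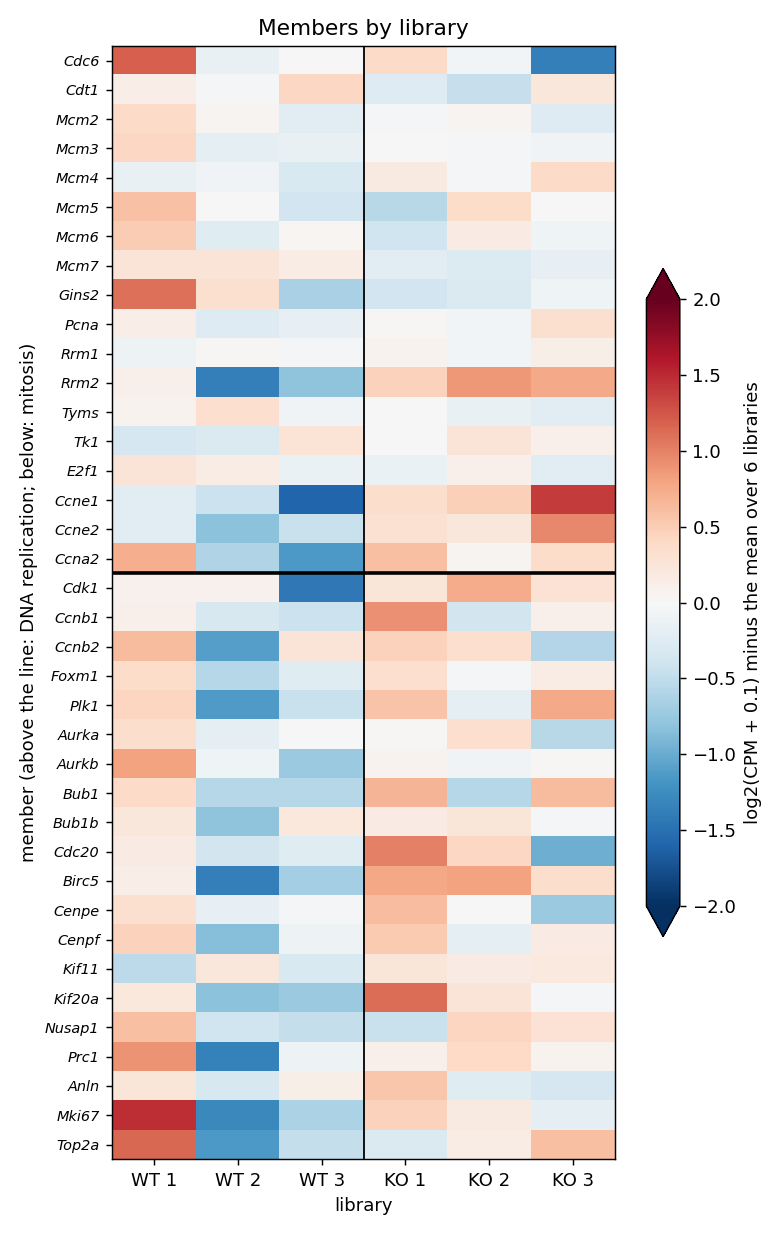
Deviation of each of the 38 members from its mean over the 6 libraries, on the log2(CPM + 0.1) scale (colour, limits -2 and 2), with libraries as columns and members as rows in order of role. Below the horizontal line are the mitosis members, of which WT 2 is the lowest library in 10 of 19 tested (the share over all genes was not counted). The rows of Rrm2, Ccne1, Ccne2 and Birc5 are redder in CRY1 KO.

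The difference between the groups in mitosis genes thus changed with the WT library left out. The median log2 difference was 0.22 over mitosis members and -0.11 over replication members, beside -0.02 over all tested genes. Without WT 1 the medians were 0.88 and 0.08, beside -0.01 over all genes, and 16 of 37 members had all CRY1 KO libraries above the remaining WT libraries (43.2%, beside 20.4% of all genes). Rrm2 and Birc5 then passed, and 10 of 38 members had an unadjusted p under 0.05 and a higher level in CRY1 KO (26.3%, beside 11.3% of all genes). Without WT 2 the median over mitosis members was -0.02, and 0 members passed. The number of all genes that passed also changed with the library left out, from 17 (without WT 2) to 844 (without WT 3). WT 1 and WT 2 pull in opposite directions, and the labels give no ground to leave either out.

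Summed markers of red cells, of neutrophils and myeloid precursors, and of Kupffer cells were highest in WT 1, as were, by less, those of T and NK cells and of stellate cells. Their part in the values of the cell cycle genes was not tested. Of the 15 markers of red cells, their precursors and platelets, 10 were tested and 0 passed the edgeR test, and their summed level was 2989 CPM in WT 1, then 1030 and 662 CPM in the other WT libraries, against 588 to 743 CPM in CRY1 KO. Single genes of the list did not all follow WT 1. Slc4a1 had 485 counts there and 6 to 16 elsewhere, and Ermap, Gata1 and Epb42 had 84, 27 and 22 counts there and 0 in the other 5 libraries. Klf1 and Alas2, which red cell precursors also express, did not stand apart in WT 1, with 270, 218 and 324 counts of Klf1 in WT and 287, 230 and 288 in CRY1 KO, and 8448 to 11769 counts of Alas2 over all libraries (log2 0.02). Among neutrophil and myeloid precursor markers (11 in the table, 6 tested, 0 passed) Mpo had 82 counts in WT 1 and 0 to 10 elsewhere, and Prtn3 229 and 0 to 31, while the list summed to 12.1, 5.09 and 3.28 CPM in WT and to 1.75 to 2.43 CPM in CRY1 KO, with Ngp, Camp, Ltf, Elane, S100a8 and Cxcr2 also at 0 in some library.

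Kupffer cell markers, all 12 of them tested and detected in every library, summed to 654, 411 and 256 CPM in WT and to 235 to 238 CPM in CRY1 KO. Of these markers 0 passed the edgeR test, with 9 lower at an unadjusted p under 0.05 (75%, beside 9.84% of all tested genes). In 8 of them every CRY1 KO library stood below every WT library (66.7%, beside 12.7% of all tested genes). B and plasma cell markers summed to 12.4, 16.2 and 21.4 CPM in WT and to 7.06 to 7.89 CPM in CRY1 KO, and Jchain, the joining chain of antibodies, was lower (1 of 9 tested). T and NK cell markers summed to 4.63 to 5.09 CPM in WT and to 2.68 to 4.29 CPM in CRY1 KO (0 of 10 passed), with Cd3d, Cd8b1 and Ncr1 at 0 in some library. Endothelial (284 to 312 and 284 to 340 CPM), stellate (181 to 261 and 184 to 219 CPM) and bile duct markers (47.8 to 96.4 and 74.7 to 80.0 CPM) overlapped between WT and CRY1 KO, with 0 passing in each. Hnf4a was the hepatocyte marker that passed, higher in CRY1 KO (log2 0.73, edgeR adjusted p = 0.0389).

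**Figure D4:**
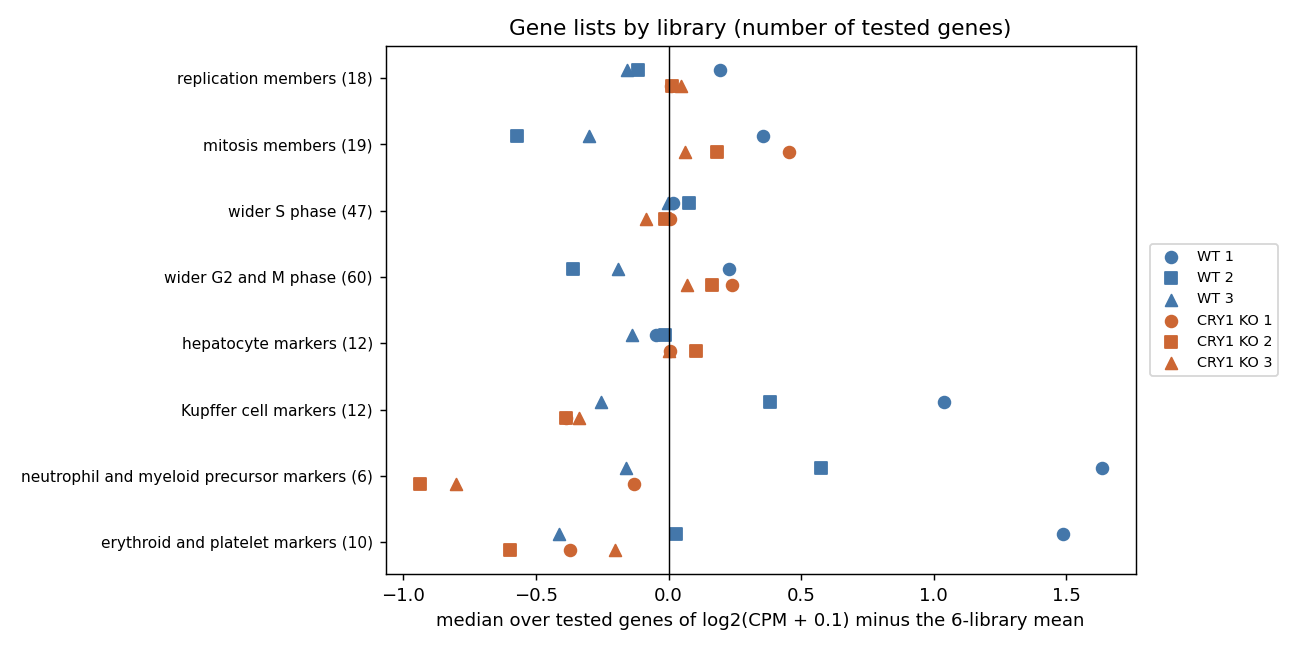
Median over the tested genes of a list of the deviation from the 6-library mean, on the log2(CPM + 0.1) scale, for each library (symbols; blue WT, orange CRY1 KO). In the mitosis members and the wider G2 and M phase list WT 1 lies among the CRY1 KO libraries and WT 2 and 3 lie to their left, while WT 1 lies far to the right in Kupffer, neutrophil and red cell markers.

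In a wider S phase list of 50 genes of replication and repair, 47 were tested and 0 passed the edgeR test, with a median log2 difference of -0.04. At an unadjusted p under 0.05 there were 3 higher and 4 lower (6.38% and 8.51%, beside 10.9% and 9.84% of all tested genes). The groups did not overlap in 5 that were higher and 6 that were lower in CRY1 KO (10.6% and 12.8%, beside 14.6% and 12.7% of all tested genes). Among the smallest p were those of Usp1, a deubiquitinase of DNA repair (log2 0.34, SE 0.11), Timeless, a replication fork protein related by name to the fly clock gene (-0.48, SE 0.18), and Dut, which removes dUTP (-0.45, SE 0.17).

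The wider list of G2 and M phase genes had a positive median, like the mitosis members. Of 69 genes 60 were tested and 0 passed the edgeR test. An unadjusted p under 0.05 was found for 4 higher and 2 lower genes (6.67% and 3.33%, beside 10.9% and 9.84% of all tested genes). A positive difference was found in 44 and a negative one in 16, with a median of 0.32. Over all tested genes 47.3% were positive, with a median of -0.02. By library the median deviations of WT 1, 2 and 3 were 0.23, -0.36 and -0.19, and those of CRY1 KO 1, 2 and 3 were 0.24, 0.17 and 0.07. By this measure WT 1 lay within the CRY1 KO range, as in the mitosis members. Summed CPM gave another order, with WT 1 the lowest library. The sums were 184.9, 188.5 and 198.3 CPM in WT 1, 2 and 3, and 207.1, 188.8 and 186.8 CPM in CRY1 KO 1, 2 and 3. Hjurp, the gene of the list with the highest level, was itself lowest in WT 1 and weighs heavily in these sums. It alone gave 46.1, 56.6 and 75.6 CPM in WT 1, 2 and 3, and 64.7, 54.1 and 60.1 CPM in CRY1 KO 1, 2 and 3. The groups did not overlap in 7 higher and 2 lower genes (11.7% and 3.33%, beside 14.6% and 12.7% of all tested genes). The smallest p were those of Ckap5, a microtubule polymerase gene (log2 -0.41, SE 0.11), Ncapd2, a condensin subunit gene (0.53, SE 0.18), Ccnf, which encodes cyclin F (0.50, SE 0.18), and Mad2l1, a spindle checkpoint gene (0.49, SE 0.20). In this list 23 genes were at 0 in at least 1 library, among them Ttk, Aspm and Ube2c.

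Among 47 inhibitors, D cyclins and other regulators, 45 were tested and Wee1 alone passed the edgeR test, with a median of 0.11. At an unadjusted p under 0.05 there were 9 higher and 6 lower (20% and 13.3%, beside 10.9% and 9.84% of all tested genes). Wee1 held 1.26, 1.58 and 1.97 CPM in WT libraries and, in the CRY1 KO libraries, 9.86, 11.4 and 19.1 CPM (log2 3.07, SE 0.30, edgeR adjusted p = 0.00662; 0.0658 without WT 2). No member had a difference of this size.

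Gadd45g, a stress-induced growth arrest gene, was at 18.6, 20.3 and 18.4 CPM across the WT libraries, compared with 3.01, 5.05 and 8.02 CPM across CRY1 KO (log2 -1.83, SE 0.33, edgeR adjusted p = 0.0515). Its groups lay far apart, and the call turned with the setting, as it passed in DESeq2, limma-voom, with a minimum count of 50 and without CRY1 KO 1 or 3. E2f8, an E2F repressor that acts in hepatocyte polyploidy, had WT values of 4, 9.30 and 10.6 CPM and CRY1 KO values of 3.20, 3.60 and 3.04 CPM (log2 -1.28, SE 0.34), and passed without WT 1 (edgeR adjusted p = 0.00215). E2f2, an activator of the same family, had -1.76 (SE 0.47), and the checkpoint kinase gene Chek1 1.28 (SE 0.43), neither past the edgeR threshold. DESeq2 called E2f8 (adjusted p = 0.00288) and E2f2 (adjusted p = 0.0106), and did not call Chek1 (adjusted p = 0.0708).

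Many of the members had low counts and wide intervals. Of the 37 tested members, 12 had a mean below 50 counts, and of all 1746 tested genes at that level 0% were called, with a median SE of 0.60 log2 units. For 24 of 37 members the 95% interval reached a 2-fold change in some direction, and for 13 it lay wholly within it, among them Mcm2 to Mcm7, Pcna, Rrm1, Tyms, Tk1 and E2f1. Mki67 and Top2a had an SE of 0.76 and 0.65, where the median of tested genes with a mean of 50 to 200 counts was 0.32. How much of an interval comes from counting and how much from the spread between libraries was not tested.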

How the data were processed

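RNA of 6 liver libraries was analysed from 1 table of whole numbers per gene that the authors deposited, taken as estimated counts. The value 3 was more frequent than 1, 2 or 4 in each library, so a unit is not a single fragment. The submitters' processing notes name StringTie 2.1.7, HISAT2 2.2.1, limma 3.42.2 and Trim Galore 0.6.7, and build GRCm39, without their roles. Settings, the annotation and whether strand was used were not given in the sources used here. No gene in the table sums to less than 11 counts.

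Groups came from the titles. Genes were filtered in edgeR 4.0.16 (filterByExpr, minimum count 10, minimum total 15), leaving 13816 of 15092, scaled by TMM (trimmed mean of M values) and compared by the robust quasi-likelihood test over the whole table with Benjamini-Hochberg adjustment at 0.05. Intervals (95%) and SE come from that fit. Deviations use log2(CPM + 0.1). Alternatives were DESeq2 1.42.0, limma-voom (limma 3.58.1), other scalings and filters, a replicate block and leaving out each library.

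Members and gene lists were chosen with earlier results of these data known. Of 307 list entries 302 matched the table, 1 through another symbol. Named are members that passed or did not overlap, in each role group those with most counts and smallest p, and in wider lists genes that passed or had up to 4 smallest p. Other members, Chek1, some markers and genes overlapping members were named after their values were seen. The procedure was tested on simulated data, with changes planted only in genes with a mean of at least 50 counts, which 12 members do not reach. Of planted changes of 1.5-, 2- and 4-fold it called 19.4%, 70.1% and 92.4%, and 12 of its 133 calls were not planted. Some genes that the rule would name are not reported here.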

Additional observations from a re-analysis of the deposited data

How the results depend on the processing

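The count of 0 members called was the same with DESeq2 size factors, no scaling, no filter, a minimum count of 50, limma-voom and the replicate block. DESeq2 called 5 members, and leaving out 1 library gave 0 to 2. The count over all genes was 235 in the reported fit, 113 without scaling, 1322 by DESeq2, 94 with the replicate block and 17 to 844 with 1 library left out (17 without WT 2, 844 without WT 3). With 1 library left out the median log2 difference ran from -0.18 to 0.0799 for replication members and from -0.0156 to 0.88 for mitosis members. Chosen after seeing the data, the count of members with groups that do not overlap ran from 6 to 16 (higher in CRY1 KO) and from 1 to 5 (lower).

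Same-numbered libraries did not deviate together (correlations -0.084, -0.036 and 0.094), and not every library correlated best with its own number, so the number was not taken as a pairing; with the replicate block 0 members passed.

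The sign of 15 tested members and of Cry1 changed in some setting, and 22 members kept theirs in all; the cause was not tested. The changed log2 differences were Cenpe at -0.0001 with DESeq2 size factors, Cenpe at -0.0294 and Anln at -0.0005 without scaling, Aurkb at 0.20, Cenpe at -0.22, Anln at -0.0410 and Mki67 at 0.35 by limma-voom, and Aurkb at 0.0990, Cenpe at -0.17, Anln at -0.0264 and Mki67 at 0.31 with the replicate block. With 1 library left out the log2 differences ran as follows: Mcm2 -0.31 to 0.0039, Mcm3 -0.20 to 0.15, Mcm5 -0.40 to 0.18, Mcm6 -0.39 to 0.0075, Aurka -0.33 to 0.12, Aurkb -0.59 to 0.68, Mki67 -0.64 to 1.20, Ccnb2 -0.37 to 0.48, Bub1b -0.0913 to 0.40, Cenpe -0.61 to 0.41, Cenpf -0.0058 to 0.96, Nusap1 -0.0517 to 0.68, Prc1 -0.33 to 0.98, Anln -0.40 to 0.22, Top2a -0.38 to 1.14 and Cry1 -0.19 to 0.0879.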
